A study of Mus musculus with 12 samples.

Results

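The nuclear genes of the mitochondrial respiratory chain were examined in RNA sequencing of mouse cells treated with membrane-coated nanoparticles. They were chosen by name: protein-coding genes outside the mitochondrial genome whose symbol begins with Nduf, Sdh, Uqcr, Atp5, or Cox followed by a digit. The rule found 93 of the 11669 genes in the deposited table, and 88 of them passed the filter for testing, which asked for at least 1 FPKM in at least 3 libraries. FPKM is the number of reads of a gene relative to its length and to the size of the library. The 12 libraries fall into 4 groups of 3, named in the labels NP-D@MP, NP-D@M, NP@M and PBS, and RNA was taken after 24 h. The labels do not spell out NP, D, M or P. According to its title, the series concerns a nanodrug coated with engineered cancer cell membrane that acts on CDKs, together with antibody against PD-L1, in liver metastasis of colon cancer. PBS is the buffer given without particles. The label for the cell line, shared by every group, is TAMC, with marrow as the tissue and immune cell as the cell type, whereas the extraction protocol speaks of retinas. Whether 3 libraries of 1 group came from different cultures or animals is not stated, and p-values here reflect spread between these libraries alone, which may be technical.

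Respiratory complexes I to IV carry electrons from NADH and succinate to oxygen in the inner mitochondrial membrane, and complex V, the ATP synthase, uses the proton gradient they build. Most subunits are encoded in the nucleus and imported, while a few core subunits of complexes I, III, IV and V are encoded in mitochondrial DNA, so that both genomes must supply parts of one machine. Complex II, the succinate dehydrogenase of the citrate cycle, is encoded wholly in the nucleus. Assembly factors help to build the complexes without staying in them. In macrophages the chain is known for the switch between oxidative and glycolytic metabolism that goes with activation.

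The members fell into 34 subunits and 6 assembly factors of complex I, 4 subunits and 2 assembly factors of complex II, 7 subunits of complex III, 17 subunits and 6 assembly factors of complex IV, and 16 subunits of complex V. Ndufa4, named after complex I, was counted with complex IV, where its protein is known to sit. Atp5s, named after the ATP synthase, was kept apart. The 5 members that could not be tested were Ndufb2, Cox11 and the tissue isoforms Cox4i2, Cox6b2 and Ndufa4l2. None of them reached 3 FPKM in any library. Cox11, which delivers copper to cytochrome oxidase, was listed at 0 in 5 of 6 libraries with D. A further 5 genes with matching names were not protein coding and stayed out, among them Ndufs6b, Ndufb4c and Ndufab1-ps. How the submitters treated reads shared by such copies is not given in the sources used here, so the levels of Ndufs6, Ndufb4 and Ndufab1 are uncertain to that extent.

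The libraries held 14444950 to 17338264 reads recovered from the deposited values. The deposited values carry a factor between libraries: the library size they imply was 0.504 ± 0.0316 times the recovered reads in the 6 libraries with D (NP-D@MP and NP-D@M) and 2.32 ± 0.0635 times in the 6 without D (NP@M and PBS; SD). Each comparison across that divide was therefore also made on values scaled to the read totals. The change of scale moved the median log2 difference of all tested genes between NP-D@M and NP@M by a large step, to -1.47 on read totals, against 0.16 as deposited. The 10 most abundant genes took 33.5 to 35.4% of reads with D and 10.1 to 12.4% without D. Among the libraries without D, replicate 3 of PBS and replicate 2 of NP@M stood apart. Markers of monocytes and macrophages summed to 36227 to 38456 FPKM in NP-D@MP, 30907 to 41458 in NP-D@M, 2856 to 3468 in NP@M and 2874 to 4191 in PBS. With 14 of 14 of these markers in the table, 12 of the 13 tested were called higher in NP-D@M than in NP@M on deposited values. Of the 5 megakaryocyte and platelet markers, 4 were in the table, and their sums ran from 20396 to 28667 FPKM with D and from 484 to 1211 FPKM without D. Granulocyte markers summed to 4821 to 7701 FPKM with D and 1451 to 2395 FPKM without D. Scaled to read totals, granulocyte sums were 2495 to 3812 in NP-D@MP and 2668 to 3855 in NP-D@M. They were 3358 to 4636 in NP@M and 4240 to 5243 in PBS, so the deposited direction did not hold there. Monocyte and macrophage sums stayed higher with D on read totals, at 16296 to 20005 against 6609 to 9173. So did megakaryocyte and platelet sums, at 10754 to 14457 against 1120 to 2831. The 8 retina and 5 erythroid markers looked for were not among the genes of the table used. The part of these cell type markers in the results below was not tested. In bulk RNA a smaller number of cells of a type and less RNA per cell cannot be told apart.

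On the deposited values nearly the whole respiratory chain stood higher in the cells that received D. Between NP-D@M and NP@M, which differ by D, 81 of the 88 tested members were called higher and 4 lower by limma (Benjamini-Hochberg adjusted p under 0.05 over all 8615 genes), against 45.2% of all tested genes called higher and 46.0% called lower. The median log2 fold change of the members was 2.34, against 0.16 over all tested genes. On read totals, 18 members were called higher and 13 lower, against 9.12% and 61.7% of all tested genes, and the members' median was 0.44 against -1.47. The direction of many single genes thus depended on the scale. Of the 88, 81 reached 1 FPKM in at least 3 libraries on both sides. Another 4 (Atp5s, Cox16, Cox7a1 and Ndufaf2) did so only with D, and 3 (Cox10, Ndufaf1 and Ndufaf7) only without D, so that those 7 entered the test through the side where they were high. Without both libraries that stood apart, 81 were still called higher and 4 lower on deposited values. On read totals these counts were 28 and 22, an alternative added after the data had been seen. The shares of all tested genes without those libraries are not given here, so these counts describe the members alone.

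A set of promoter sequences is shown because most members were called higher together on deposited values while a few were called lower. Promoter windows reaching from 250 bases before to 50 bases after the start of the gene were taken from RefSeq on GRCm38.p6, and 76 of the 93 members had one. Searched on both strands, the letters GCATGCGC, the middle of the binding site of nuclear respiratory factor NRF1, stood in 14.5% of the members' windows, against 2.80% of the first listed windows of 27025 genes. The ETS motif CCGGAAG, bound by GABP, stood in 27.6% against 9.12%, and the YY1 motif AAGATGGCG in 9.21% against 1.49%. Among the tested genes of the table that had a window, 6298 in number, the shares were 5.65%, 19.96% and 3.65%. At least 1 of the motifs stood in 42.1% of member windows, 27.0% of tested gene windows and 12.5% of all windows. NRF1 letters can overlap on opposite strands. The windows below, read 5′ to 3′ along the gene's strand, belong to a subunit each of complexes V, IV, I and III and to an assembly factor, Ndufaf1, that was lower with D; capitals mark the motifs.
Atp5e, chr2:174464052-174464351, minus strand: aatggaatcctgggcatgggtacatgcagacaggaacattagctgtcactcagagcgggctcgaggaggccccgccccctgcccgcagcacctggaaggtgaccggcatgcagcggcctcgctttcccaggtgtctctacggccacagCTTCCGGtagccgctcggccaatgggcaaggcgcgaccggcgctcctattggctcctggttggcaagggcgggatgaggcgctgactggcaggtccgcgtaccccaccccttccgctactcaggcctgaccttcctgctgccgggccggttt
Cox6a1, chr5:115348909-115349208, minus strand: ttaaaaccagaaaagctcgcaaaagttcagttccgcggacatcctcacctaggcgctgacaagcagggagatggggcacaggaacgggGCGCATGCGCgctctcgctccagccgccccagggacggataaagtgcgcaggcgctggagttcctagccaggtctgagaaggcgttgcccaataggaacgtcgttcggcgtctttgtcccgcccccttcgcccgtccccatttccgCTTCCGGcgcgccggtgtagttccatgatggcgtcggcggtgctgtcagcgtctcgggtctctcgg
Ndufc1, chr3:51408906-51409205, minus strand: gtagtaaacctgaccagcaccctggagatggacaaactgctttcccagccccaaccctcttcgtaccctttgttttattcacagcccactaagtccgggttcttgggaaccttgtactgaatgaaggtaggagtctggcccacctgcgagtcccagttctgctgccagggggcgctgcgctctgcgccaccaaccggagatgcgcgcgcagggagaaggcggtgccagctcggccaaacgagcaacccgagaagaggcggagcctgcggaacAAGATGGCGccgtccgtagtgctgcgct
Uqcrc1, chr9:108936398-108936697, plus strand: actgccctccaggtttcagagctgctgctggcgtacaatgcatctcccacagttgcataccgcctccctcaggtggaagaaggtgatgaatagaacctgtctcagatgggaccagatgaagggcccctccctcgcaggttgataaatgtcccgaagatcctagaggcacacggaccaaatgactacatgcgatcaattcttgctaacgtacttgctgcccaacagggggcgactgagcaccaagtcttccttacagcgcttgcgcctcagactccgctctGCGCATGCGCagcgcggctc
Ndufaf1, chr2:119662785-119663084, minus strand: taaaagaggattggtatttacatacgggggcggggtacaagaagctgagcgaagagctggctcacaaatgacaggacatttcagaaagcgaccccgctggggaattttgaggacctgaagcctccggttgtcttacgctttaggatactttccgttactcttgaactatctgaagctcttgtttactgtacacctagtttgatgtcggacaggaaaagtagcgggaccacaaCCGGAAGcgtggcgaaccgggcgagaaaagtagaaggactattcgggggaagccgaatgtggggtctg
Atp5e carried an ETS motif, Cox6a1 overlapping NRF1 letters and an ETS motif, and Ndufc1 a YY1 motif near the start site. Uqcrc1, a long subunit that fell on read totals, carried overlapping NRF1 letters. Ndufaf1, which was lower with D on both scales and passed the filter only without D, also carried an ETS motif. Genes called higher and genes called lower thus both held these letters. Each window shown held a motif, whereas 32 of the 76 member windows did. A match describes the sequence and is not a measured binding site.

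**Figure D1:**
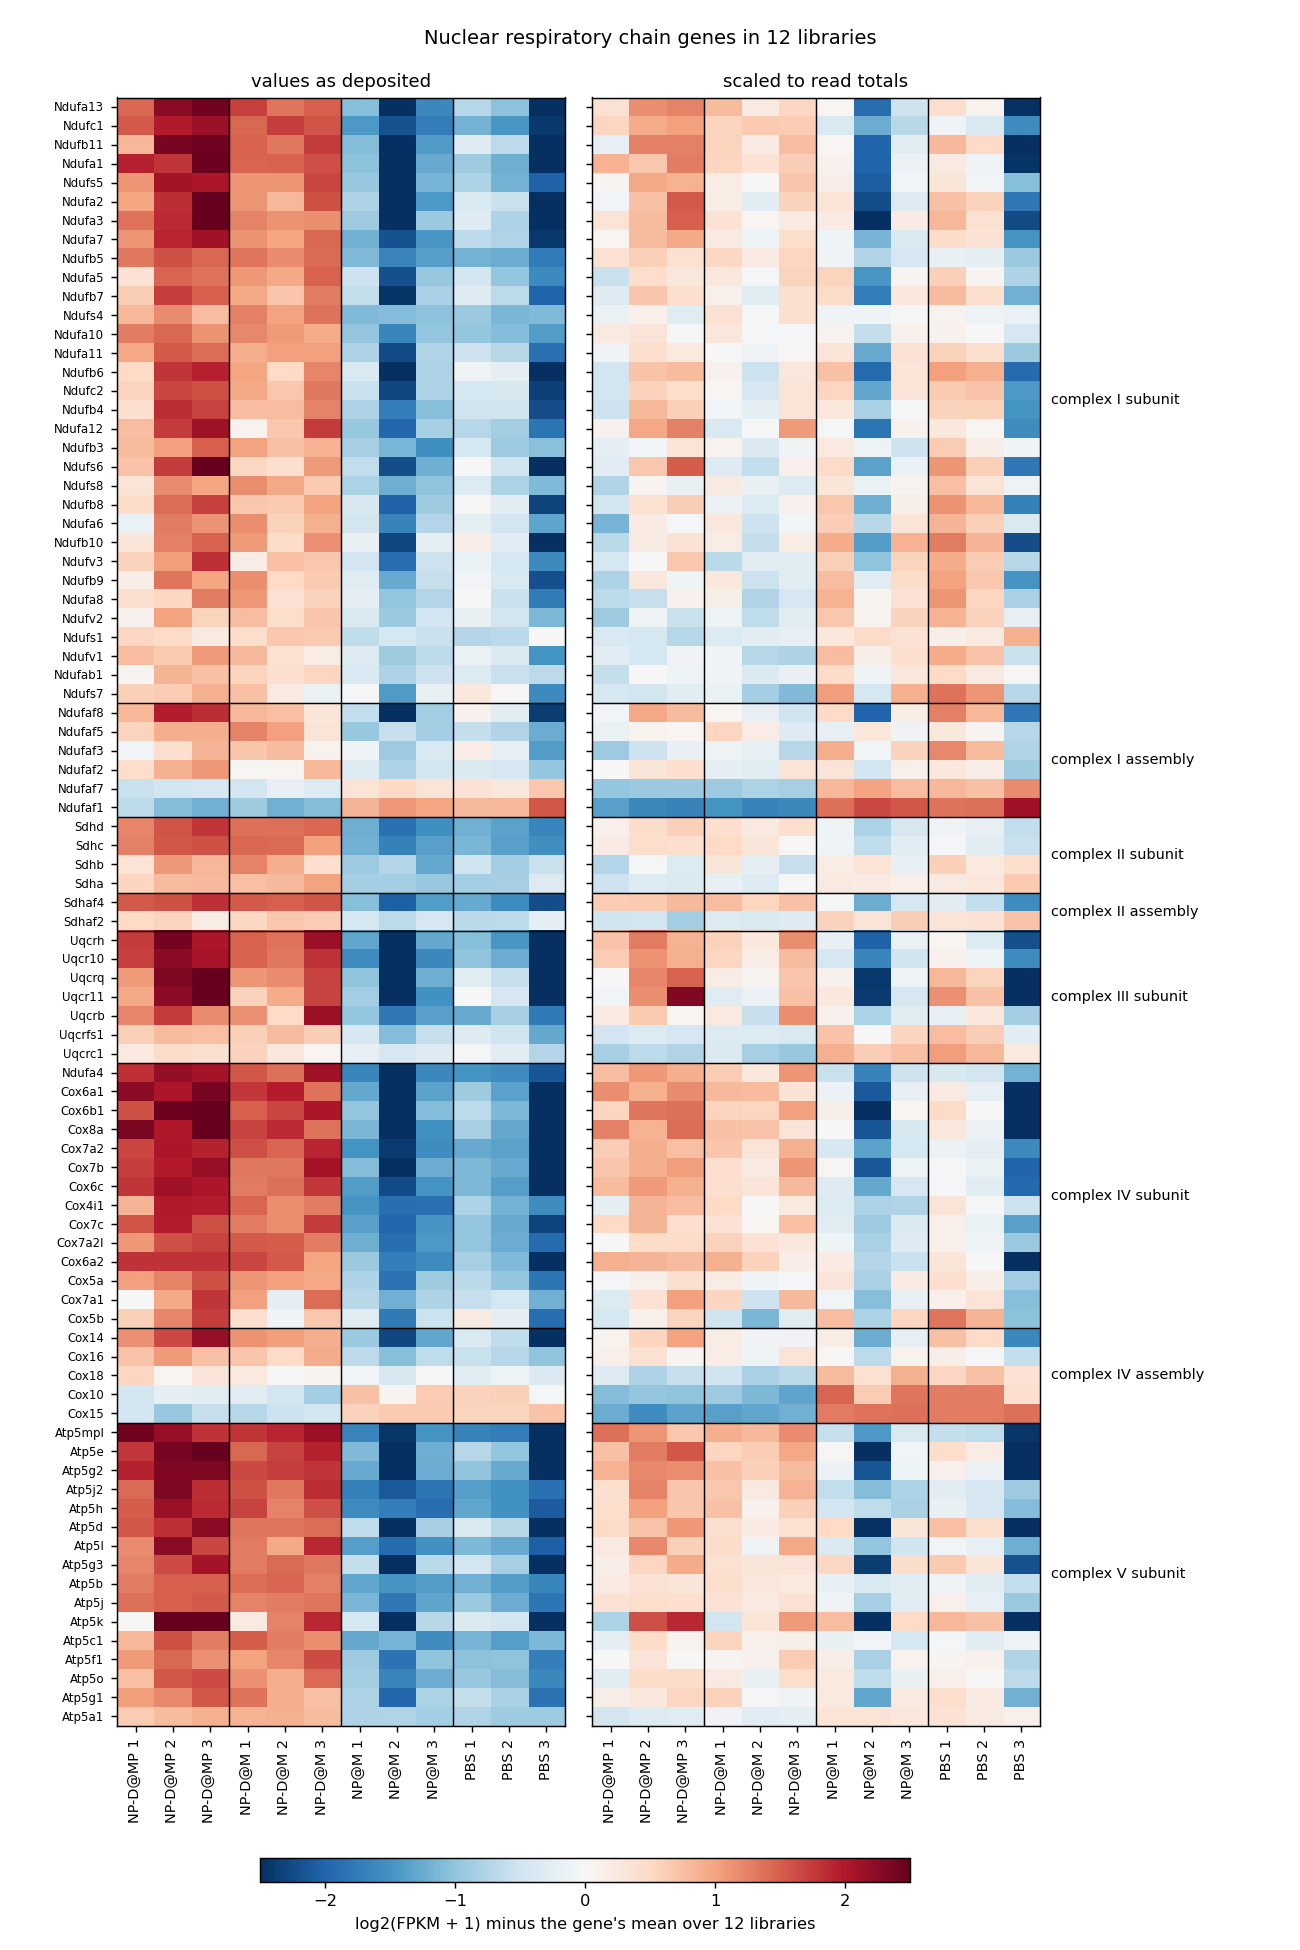
Heat map of 86 tested members (rows, by class and ordered by fold change) in 12 libraries (columns), as log2(FPKM + 1) minus the gene's mean over the libraries, from -2.5 (blue) to 2.5 (red), as deposited (left) and on read totals (right). As deposited, the 6 libraries with D are red for nearly every subunit, and NP@M replicate 2 and PBS replicate 3 are the darkest blue columns; on read totals Ndufaf1, Ndufaf7, Cox10 and Cox15 stay blue with D.

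Complex I, the entry point for electrons from NADH, had 32 of 33 tested subunits called higher in NP-D@M than in NP@M on deposited values and none lower. Over all tested genes the shares were 45.2% and 46.0%. Log2 fold changes of the 33 ran from 0.81 to 3.37 with a median of 2.11. Ndufa13 (also known as GRIM-19), an accessory subunit, and Ndufc1, a small membrane subunit, headed the class. Ndufc1 had 52.8, 72.0 and 81.5 FPKM in the NP-D@MP libraries and 48.9, 60.4 and 54.0 FPKM in NP-D@M, against 5.87, 3.08 and 4.62 FPKM in NP@M and 7.23, 5.79 and 2.496 FPKM in PBS. The 6 libraries with D lay above the 6 without D, with no overlap. Ndufc1 was higher by 3.35 ± 0.32 on the log2 scale (SE, adjusted p = 2.6e-06), and it remained called higher on read totals, at 1.38 ± 0.35 (adjusted p = 0.0044). Ndufa13 changed by 3.37 ± 0.64 (adjusted p = 0.00048) as deposited and by 1.29 ± 0.70 (adjusted p = 0.12) on read totals.

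At the low end of complex I stood Ndufs7 and Ndufab1. Ndufs7, the subunit that holds iron-sulfur cluster N2 next to the ubiquinone site, had 24.6, 25.2 and 30.3 FPKM in NP-D@MP and 27.3, 18.9 and 14.1 FPKM in NP-D@M, against 15.5, 5.39 and 13.97 FPKM in NP@M and 19.4, 16.2 and 4.64 FPKM in PBS. Groups with and without D overlapped. It was the 1 complex I subunit not called on deposited values (0.81 ± 0.49, adjusted p = 0.13), and its estimate on read totals was -1.21 ± 0.54 (adjusted p = 0.065). Ndufab1, the mitochondrial acyl carrier protein, was called higher as deposited at 1.06 ± 0.21 (adjusted p = 0.00062), while its value on read totals was -0.43 ± 0.21 (adjusted p = 0.084).

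On read totals 2 of the 33 complex I subunits were called higher and 4 lower, with a median of 0.17. Over all tested genes the shares were 9.12% and 61.7%, so calls as higher were no more frequent in this class. Ndufs1, the largest subunit of the complex, which carries iron-sulfur clusters, was picked after its values were seen. It had 6.79, 6.59 and 5.33 FPKM in NP-D@MP and 6.37, 7.66 and 7.56 FPKM in NP-D@M, against 2.51, 3.02 and 2.70 FPKM in NP@M and 2.27, 2.42 and 4.41 FPKM in PBS. As deposited, the libraries with D lay above those without D, and PBS replicate 3 was the highest of the 6 without D. Ndufs1 changed by 1.13 ± 0.20 as deposited (adjusted p = 0.00029) and by -0.64 ± 0.20 on read totals (adjusted p = 0.013). Among other long subunits, also picked after their values were seen, Ndufa10 had a coding length of 1065 bases and a read-total value of 0.20, and Ndufv3 a coding length of 1404 bases and a value of -0.46.

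**Figure D2:**
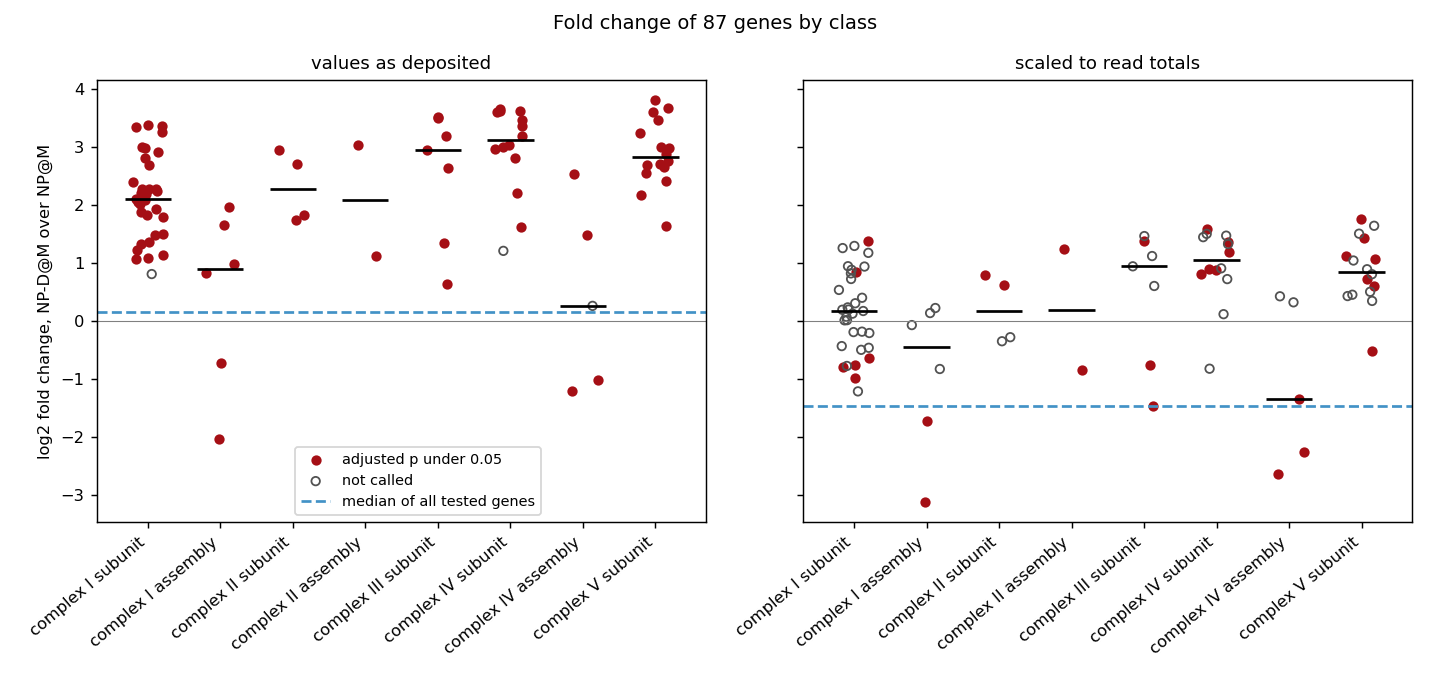
Log2 fold change of NP-D@M over NP@M (vertical axis) for 87 genes by class, as deposited (left) and on read totals (right); filled points passed an adjusted p of 0.05, black bars are class medians and the dashed line is the median of all 8615 tested genes. Subunit classes lie above the dashed line in both panels, at medians of 2.11 to 3.11 as deposited and 0.17 to 1.05 on read totals, while 4 assembly factors of complexes I and IV, called lower, lie below 0 in both.

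Of the 6 assembly factors of complex I, 4 were called higher and 2 lower on deposited values, and none higher and 2 lower on read totals. Over all tested genes the shares were 45.2% and 46.0% as deposited, and 9.12% and 61.7% on read totals. Ndufaf2 passed the filter only with D, and Ndufaf1 and Ndufaf7 only without D, so the counts of assembly factors partly follow the filter. Ndufaf1, an early assembly chaperone of complex I, had 0.457, 0.0818 and 0 FPKM in NP-D@MP and 0.231, 0 and 0.0751 FPKM in NP-D@M, against 3.11, 3.84 and 3.54 FPKM in NP@M and 3.04, 3.06 and 5.73 FPKM in PBS. These are 6, 1 and 0 reads in NP-D@MP and 3, 0 and 1 reads in NP-D@M, against 165 to 203 reads in NP@M and 157 to 272 reads in PBS. It was lower at -2.03 ± 0.22 (adjusted p = 6.8e-06) as deposited and at -3.12 ± 0.20 (adjusted p = 8.1e-08) on read totals, both understated by the pseudocount of 1. No library with D came near those without D, and PBS replicate 3 and NP@M replicate 2 held the highest values of their groups. Ndufaf7, a mitochondrial methyltransferase needed for complex I assembly, had 0.163, 0.245 and 0.254 FPKM in NP-D@MP and 0.231, 0.473 and 0.354 FPKM in NP-D@M, against 1.17, 1.41 and 1.12 FPKM in NP@M and 1.18, 1.08 and 1.73 FPKM in PBS. It too passed the filter only through the libraries without D, and was lower on both scales, at -0.73 ± 0.14 (adjusted p = 0.0004) and -1.72 ± 0.14 (adjusted p = 5.5e-07). In contrast, Ndufaf5, which hydroxylates Ndufs7, was called higher at 1.65 ± 0.26 (adjusted p = 0.00011) and Ndufaf8, its partner, at 1.97 ± 0.64 (adjusted p = 0.013) as deposited. On read totals these were 0.14 ± 0.28 (adjusted p = 0.68) and 0.22 ± 0.79 (adjusted p = 0.82).

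The 4 subunits of complex II were each called higher in NP-D@M than in NP@M as deposited, against 45.2% of all tested genes. Their median was 2.27, and on read totals they split into the membrane anchors and the catalytic pair. Sdhd, an anchor, had 305, 391 and 454 FPKM in NP-D@MP and 341, 342 and 357 FPKM in NP-D@M, against 55.8, 35.1 and 44.7 FPKM in NP@M and 56.3, 51.5 and 41.5 FPKM in PBS. Sdha, the flavoprotein that oxidises succinate, had 42.3, 50.6 and 51.4 FPKM in NP-D@MP and 49.3, 51.4 and 59.2 FPKM in NP-D@M, against 15.6, 15.5 and 14.5 FPKM in NP@M and 15.6, 15.9 and 22.5 FPKM in PBS. For both genes the libraries with D lay above those without D as deposited. Sdhd was higher by 2.94 ± 0.22 (adjusted p = 5.2e-07), and by 0.79 ± 0.22 on read totals (adjusted p = 0.0077). Sdhc, the other anchor, was higher by 2.71 ± 0.20 (adjusted p = 4.8e-07) and by 0.62 ± 0.21 (adjusted p = 0.019) on read totals. Sdha was higher by 1.74 ± 0.18 (adjusted p = 4.6e-06) as deposited and stood at -0.35 ± 0.16 (adjusted p = 0.079) on read totals. Sdhb, the iron-sulfur subunit, was higher by 1.83 ± 0.26 (adjusted p = 6.1e-05) as deposited and stood at -0.28 ± 0.26 (adjusted p = 0.36) on read totals. The assembly factors split likewise: Sdhaf4, a chaperone of free Sdha, was called higher on both scales (3.03 ± 0.27 and 1.24 ± 0.35, adjusted p = 2e-06 and 0.0077). Sdhaf2, which attaches the flavin to Sdha, was called higher as deposited (1.12 ± 0.18, adjusted p = 0.00011) and lower on read totals (-0.85 ± 0.17, adjusted p = 0.00079).

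Complex III, which passes electrons from ubiquinol to cytochrome c, had 7 of 7 subunits called higher as deposited, against 45.2% of all tested genes. The class median was 2.95. On read totals 1 was called higher and 2 lower, against 9.12% and 61.7% of all tested genes. The small subunits of complex III moved most. Uqcr10 had 234, 342 and 301 FPKM in NP-D@MP and 200.1, 179 and 251 FPKM in NP-D@M, against 23.7, 10.1 and 22.5 FPKM in NP@M and 34.7, 29.3 and 11.5 FPKM in PBS. It was higher by 3.49 ± 0.41 (adjusted p = 1.3e-05), and by 1.38 ± 0.44 on read totals (adjusted p = 0.016). Uqcrh, the hinge protein, was higher by 3.51 ± 0.55 as deposited (adjusted p = 0.00012), with 1.46 ± 0.62 on read totals (adjusted p = 0.054). Uqcrc1, a core protein, had 35.2, 41.1 and 39.7 FPKM in NP-D@MP and 45.0, 36.5 and 30.8 FPKM in NP-D@M, against 25.7, 21.5 and 23.5 FPKM in NP@M and 28.9, 24.8 and 17.4 FPKM in PBS. The lowest library with D thus lay close above the highest without D. It was called higher as deposited (0.63 ± 0.21, adjusted p = 0.014) and lower on read totals (-1.47 ± 0.23, adjusted p = 0.00012). Uqcrfs1, the Rieske iron-sulfur protein, was likewise called higher as deposited (1.35 ± 0.26, adjusted p = 0.00049) and lower on read totals (-0.76 ± 0.27, adjusted p = 0.027).

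**Figure D3:**
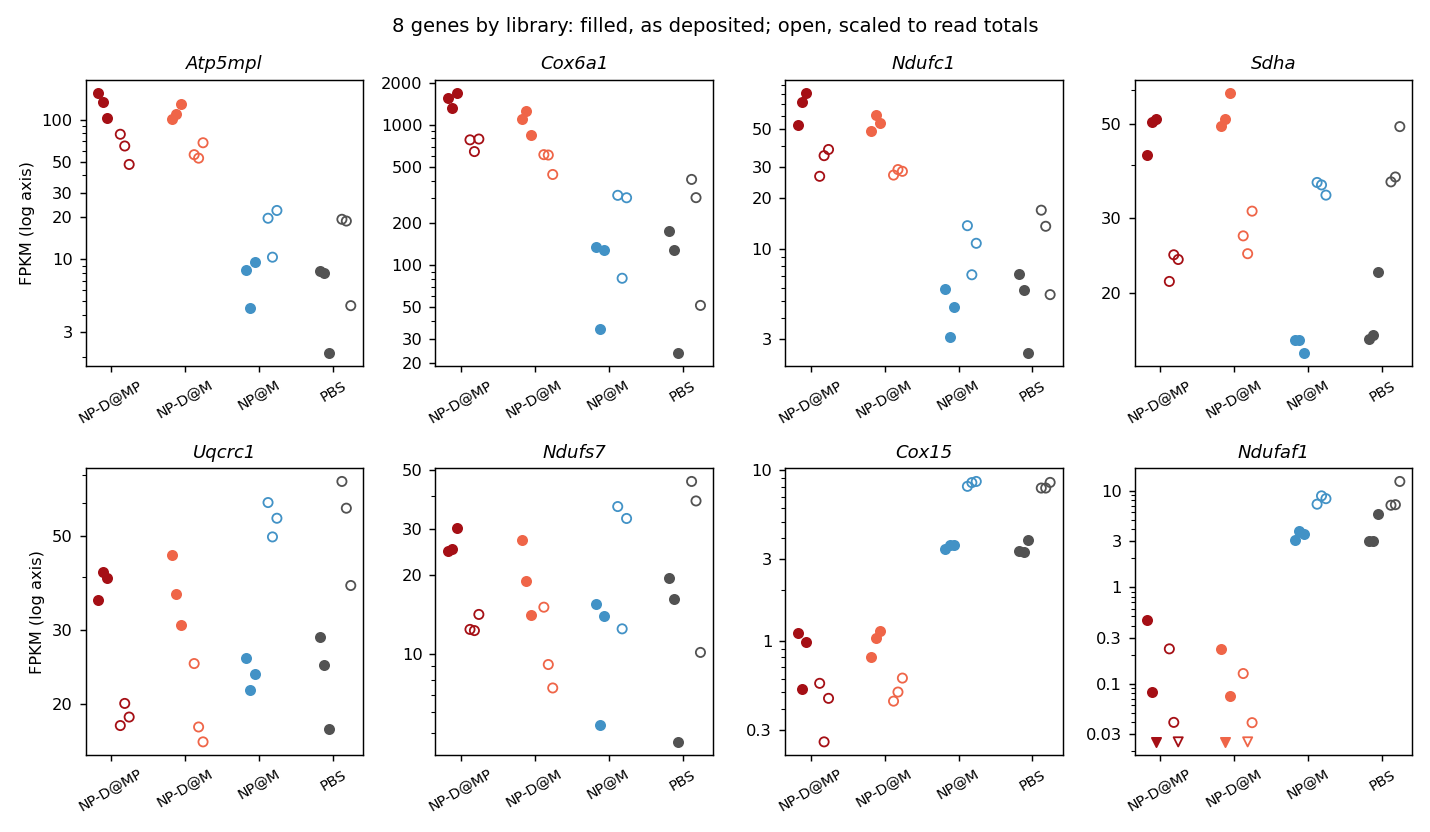
FPKM (log axis) of 8 genes in each of 12 libraries by group, as deposited (filled) and on read totals (open); triangles at the foot of a panel mark libraries listed at 0. The points of Atp5mpl, Cox6a1 and Ndufc1 lie higher with D on both scales, those of Sdha and Uqcrc1 change places between scales, those of Ndufs7 overlap, and those of Cox15 and Ndufaf1 lie lower with D on both.

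Complex IV, cytochrome c oxidase, had 13 of 14 tested subunits called higher as deposited, against 45.2% of all tested genes. On read totals 6 were called higher and none lower, against 9.12% and 61.7% of all tested genes. The class median was 3.11 as deposited and 1.05 on read totals, the highest of the subunit classes on both scales. Among the 13, Cox7a1 passed the filter only with D, so its call as deposited came partly with the filter. Ndufa4 had 128, 166 and 152 FPKM in NP-D@MP and 106, 93.4 and 155 FPKM in NP-D@M, against 10.8, 4.75 and 10.9 FPKM in NP@M and 12.02, 11.4 and 7.31 FPKM in PBS. It was higher by 3.64 ± 0.31 (adjusted p = 1.4e-06), and by 1.58 ± 0.35 on read totals (adjusted p = 0.0015). Cox6a1, the widely expressed form of subunit VIa, had 1549.9, 1323 and 1693 FPKM in NP-D@MP and 1108, 1262 and 839.9 FPKM in NP-D@M, against 134, 34.9 and 129 FPKM in NP@M and 175, 129 and 23.6 FPKM in PBS. The 2 libraries that stood apart were the lowest of the 12, at 34.9 and 23.6 FPKM. Its log2 fold change of 3.62 ± 0.68 as deposited (adjusted p = 0.00043) had a larger SE than that of Ndufa4, and its value on read totals was 1.47 ± 0.72 (adjusted p = 0.088). Cox4i1, the main form of the regulatory subunit IV, was called higher on both scales (3.03 ± 0.31 and 0.88 ± 0.32, adjusted p = 5.3e-06 and 0.03). Cox5b, a subunit on the matrix side, was the exception among the tested subunits, with 29.6, 46.6 and 66.2 FPKM in NP-D@MP and 26.1, 18.2 and 31.5 FPKM in NP-D@M, against 15.5, 4.98 and 13.0 FPKM in NP@M and 22.9, 16.2 and 4.44 FPKM in PBS. It missed the threshold as deposited at 1.21 ± 0.55 (adjusted p = 0.054) and had a value of -0.82 ± 0.60 on read totals (adjusted p = 0.24).

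The assembly factors of complex IV held the pair that makes its heme. Cox10 and Cox15 act in turn to convert heme b through heme o to the heme a of cytochrome oxidase. Cox15 had 1.12, 0.525 and 0.984 FPKM in NP-D@MP and 0.801, 1.04 and 1.15 FPKM in NP-D@M, against 3.44, 3.66 and 3.66 FPKM in NP@M and 3.36, 3.34 and 3.88 FPKM in PBS. Cox10 had 0.753, 1.01 and 0.963 FPKM in NP-D@MP and 0.990, 0.714 and 0.334 FPKM in NP-D@M, against 3.0, 1.53 and 2.71 FPKM in NP@M and 2.58, 2.60 and 1.32 FPKM in PBS. For both genes the highest library with D lay below the lowest without D. Cox15 fell by 1.20 on the log2 scale as deposited (SE 0.16, adjusted p = 2.7e-05) and by 2.63 on read totals (SE 0.13, adjusted p = 1.1e-08). Cox10 fell by 1.01 (SE 0.23, adjusted p = 0.0018) and by 2.26 (SE 0.27, adjusted p = 1.5e-05). Cox14 and Cox16, small proteins that act on the assembly of Cox1 and Cox2, were called higher as deposited (2.53 ± 0.53 and 1.48 ± 0.19, adjusted p = 0.00093 and 2.5e-05), with 0.43 ± 0.57 and 0.32 ± 0.25 on read totals (adjusted p = 0.52 and 0.26). Over all 13 tested assembly factors in the name families, 8 were called higher and 4 lower as deposited, and 1 higher and 6 lower on read totals. Over the 74 subunits the counts were 72 and 0 as deposited, and 17 and 7 on read totals. Beside the 45.2% higher and 46.0% lower of all tested genes, the assembly factors had 61.5% and 30.8% as deposited. On read totals they had 7.69% and 46.2%, near the 9.12% and under the 61.7% of all tested genes. Of the 13, 2 (Cox16 and Ndufaf2) passed the filter only with D and 3 (Cox10, Ndufaf1 and Ndufaf7) only without D. Their direction thus came partly with the filter, so no difference between the 2 kinds of gene is read from these counts. That difference was not tested as a set.

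Complex V had 16 of 16 subunits called higher as deposited, against 45.2% of all tested genes, with a median of 2.82. On read totals 6 were called higher and 1 lower, against 9.12% and 61.7% of all tested genes. Atp5mpl, a small membrane protein of the synthase, had the highest log2 fold change of the 88 members, with 156, 133 and 102 FPKM in NP-D@MP and 102, 110.1 and 129.9 FPKM in NP-D@M, against 8.42, 4.48 and 9.54 FPKM in NP@M and 8.29, 7.996 and 2.13 FPKM in PBS. The groups with and without D were far apart. It was higher by 3.81 ± 0.40 (adjusted p = 5.7e-06), and by 1.76 ± 0.47 on read totals (adjusted p = 0.0053). Atp5e, the epsilon subunit of the central stalk, was higher by 3.67 ± 0.87 (adjusted p = 0.0022) as deposited and stood at 1.64 ± 1.00 (adjusted p = 0.16) on read totals. Its values without D ranged from 1.17 to 23.6 FPKM, and the 2 lowest were the libraries that stood apart. Of the F1 head, Atp5b lay near the class median as deposited, and Atp5a1 had the lowest log2 fold change of the class. Atp5b, the beta subunit that makes ATP, had 694, 797 and 796 FPKM in NP-D@MP and 739, 769 and 678 FPKM in NP-D@M, against 114, 100.2 and 106 FPKM in NP@M and 122, 106 and 89.8 FPKM in PBS. Within each group these values were close together, also in the libraries that stood apart. Atp5b, named after its values were seen, was higher by 2.76 ± 0.18 (adjusted p = 1.8e-07), and by 0.60 ± 0.18 on read totals (adjusted p = 0.009). Atp5a1, the alpha subunit, was higher by 1.64 ± 0.16 (adjusted p = 2.5e-06) as deposited and called lower on read totals at -0.51 ± 0.15 (adjusted p = 0.0084). Atp5g1, 1 of the genes for the proton-carrying c subunit, was higher by 2.17 ± 0.38 as deposited (adjusted p = 0.00028), with 0.43 ± 0.48 on read totals (adjusted p = 0.45).

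Pairs of genes were compared as a ratio within each library, which the factor between libraries does not move except through the pseudocount. In the pairs computed both genes supply the same subunit, except for Cox7a2l, a supercomplex factor, set against Cox7a2. Of 8 pairs, 5 had both genes tested, and the 6 libraries with D were set against the 6 without D by an exact permutation test (2-sided, adjusted over the 5 pairs; the smallest p such a test can give is 0.0022). Atp5g2 and Atp5g3 encode the same mature c subunit. The log2 ratio of Atp5g2 to Atp5g3 was 0.96 ± 0.20 with D and 0.04 ± 0.32 without D (SD, n = 6 each), a difference of 0.91 (adjusted exact p = 0.0036). It ran from 0.74 to 1.20 in NP-D@MP and 0.80 to 0.97 in NP-D@M, against -0.16 to 0.66 in NP@M and -0.21 to 0.06 in PBS, with no overlap between the libraries with and without D. The log2 ratio of Cox7a2l, which joins complexes III and IV into supercomplexes, to Cox7a2 was 1.70 ± 0.28 with D and 2.33 ± 0.21 without D, a difference of -0.63 (adjusted exact p = 0.0036). Both differences remained past the threshold with a pseudocount of 0.1 and without the libraries that stood apart. The other 3 pairs set a low gene against an abundant one, and Cox7a1 passed the filter only with D. The difference was -0.73 for Atp5g1 to Atp5g3 (adjusted exact p = 0.019), -0.72 for the muscle form Cox6a2 to Cox6a1 (adjusted exact p = 0.0081) and -1.90 for the muscle form Cox7a1 to Cox7a2 (adjusted exact p = 0.0036). With a pseudocount of 0.1 these became -0.38, 0.05 and -0.41 and none passed the threshold.

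The share of reads that went to the respiratory chain does not depend on the factor between libraries. The 93 genes took 0.785, 1.02 and 1.03% of the recovered reads in NP-D@MP and 0.907, 0.766 and 0.859% in NP-D@M, against 0.756, 0.474 and 0.671% in NP@M and 0.882, 0.747 and 0.440% in PBS. The groups overlapped, and the lowest shares were those of NP@M replicate 2 and PBS replicate 3. Complex IV subunits took 0.234, 0.290 and 0.310% in NP-D@MP and 0.246, 0.210 and 0.223% in NP-D@M, against 0.150, 0.0705 and 0.128% in NP@M and 0.197, 0.154 and 0.0677% in PBS. Complex V subunits took 0.353 to 0.438% with D and 0.206 to 0.346% without D. Shares of complexes IV and V with D thus lay above those without D, while complex I shares overlapped, at 0.0986 to 0.162% with D and 0.0698 to 0.185% without D. Complex I assembly factors took less with D, at 0.0018 to 0.0030%, than without D, at 0.0041 to 0.0071%. As these are scores over the members, no p-value is given.

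The 13 mitochondrially encoded subunits, made from the other genome, were also called higher in NP-D@M than in NP@M as deposited (13 of 13, median 3.28). On read totals 5 of 13 were called higher (median 1.12). Over all tested genes the shares called higher were 45.2% as deposited and 9.12% on read totals. For mt-Atp8 and mt-Nd3 the filter was passed only through the libraries with D, so their direction came with it. They averaged 0.0925 and 0.441 FPKM in NP@M, and 0.185 and 0.108 FPKM in PBS. The log2 ratio of nuclear subunits of complexes I, III, IV and V to the mitochondrial ones, by summed FPKM, was -2.15, -0.70 and -0.01 in NP-D@MP and -1.15, -1.59 and -1.26 in NP-D@M, against -0.73, -1.31 and -0.91 in NP@M and -0.56, -0.52 and -1.59 in PBS. The values with and without D overlapped. By medians over genes in place of sums, the log2 ratio averaged -3.51 ± 0.92 with D and -2.60 ± 0.35 without D (SD, n = 6 each), again with overlap. By complex, the summed ratio averaged -2.19 with D and -1.38 without D for complex I, and 5.90 and 6.97 for complex V, but -1.33 and -1.56 for complex IV, each with overlap. The NP-D@MP libraries spanned the whole range, and the lowest of them, replicate 1, had 3.17% of its reads on mitochondrial genes, the most of the 12 libraries.

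**Figure D4:**
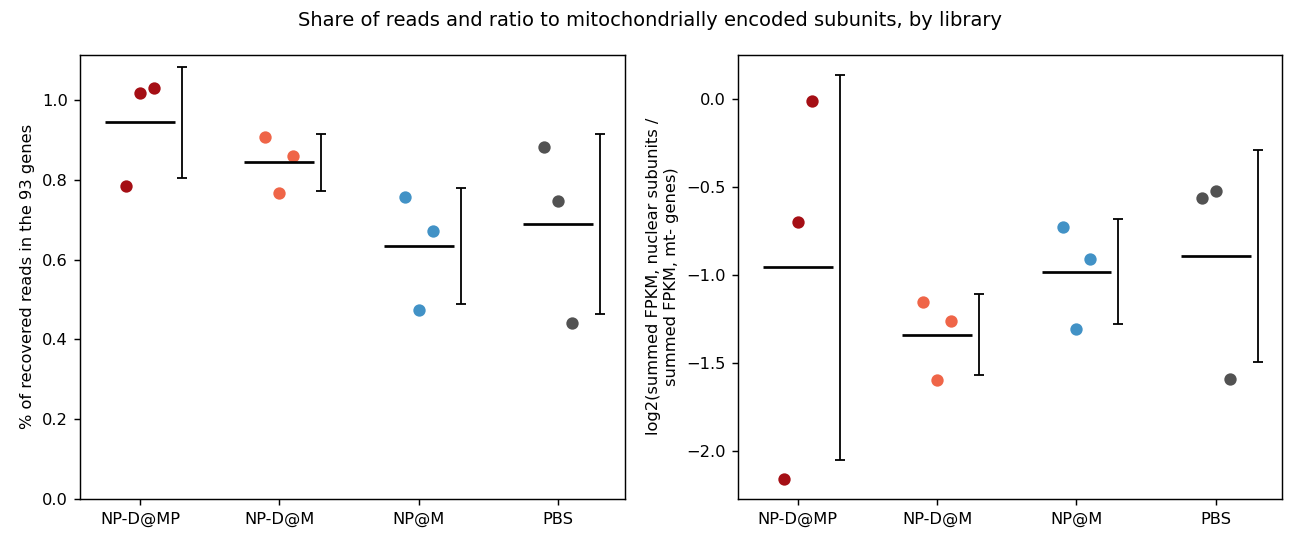
Percent of recovered reads in the 93 genes (left) and log2 ratio of summed FPKM of nuclear to mitochondrially encoded subunits (right) in 12 libraries by group; points are libraries, horizontal lines means and error bars SD of 3 libraries. Shares run from 0.766 to 1.03% with D and 0.440 to 0.882% without D, and the ratios overlap, with NP-D@MP spread from -2.15 to -0.01.

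Genes that act on the respiratory chain from outside the name families were counted from lists. The 12 tested regulators of mitochondrial gene expression had none called higher and 11 lower as deposited, and none higher and 12 lower on read totals, against 46.0% and 61.7% of all tested genes called lower. Of the 12, 11 (all but Esrra) reached 1 FPKM in 3 libraries only without D, so the filter kept genes that had to be lower with D, and no direction of the list is read from these counts. Nrf1, a transcription factor of many respiratory genes, averaged 0.242 ± 0.0653 FPKM in NP-D@MP and 0.176 ± 0.135 FPKM in NP-D@M, against 1.90 ± 0.221 FPKM in NP@M and 1.91 ± 0.0635 FPKM in PBS (SD, n = 3 each). Gabpa, the DNA-binding part of GABP, averaged 0.796 ± 0.244 and 0.763 ± 0.2503 FPKM in NP-D@MP and NP-D@M, against 3.43 ± 1.19 and 3.64 ± 1.82 FPKM in NP@M and PBS. Tfam, which packages and transcribes mitochondrial DNA, averaged 0.0191 ± 0.0331 FPKM in NP-D@MP and 0.0967 ± 0.0764 FPKM in NP-D@M, against 2.02 ± 0.603 FPKM in NP@M and 1.95 ± 0.709 FPKM in PBS. These transcripts were low in every group, at a few FPKM or less, and lower with D. Having entered the test through the libraries without D, they had log2 fold changes between NP-D@M and NP@M of -1.31 ± 0.12 for Nrf1, -1.31 ± 0.27 for Gabpa and -1.45 ± 0.18 for Tfam (limma adjusted p = 2.7e-06, 0.00086 and 2.2e-05). Esrra, a nuclear receptor that acts with PGC-1 coactivators, did not pass as deposited (-0.95 ± 0.67, adjusted p = 0.19) and was called lower on read totals (-2.72 ± 0.77, adjusted p = 0.0083). Ppargc1b, a PGC-1 coactivator, was too low to test in these libraries.

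Electron carriers and neighbouring pathways were counted likewise. Cycs, cytochrome c, averaged 33.6 ± 7.16 FPKM in NP-D@MP and 27.4 ± 6.96 FPKM in NP-D@M, against 4.10 ± 1.15 FPKM in NP@M and 4.47 ± 1.38 FPKM in PBS, and was higher by 2.48 ± 0.27 as deposited (adjusted p = 8e-06), with 0.54 ± 0.30 on read totals (adjusted p = 0.13). Cyc1, the heme protein of complex III that the name rule leaves out, did not pass as deposited (1.34 ± 0.73, adjusted p = 0.098). Of 30 tested assembly and accessory genes outside the name families, 15 were called higher and 9 lower as deposited, and 1 higher and 15 lower on read totals. Citrate cycle genes had 9 of 10 higher and 1 lower as deposited, and 1 higher and 5 lower on read totals. Mitochondrial ribosomal proteins had 28 of 49 higher and 15 lower, and 4 higher and 26 lower on read totals. Coenzyme Q synthesis had 4 of 7 higher and 2 lower, and 1 higher and 4 lower on read totals. Some genes called lower in these lists passed the filter only through the libraries without D. Sco1 averaged 0.173 and 0.232 FPKM in NP-D@MP and NP-D@M, against 1.43 and 1.34 FPKM in NP@M and PBS. In the same order Mrpl50 averaged 0.0194 and 0.0533 against 2.86 and 2.41 FPKM, and Coq10b 0.0420 and 0.0588 against 2.32 and 2.47 FPKM. Such calls came with the filter, so no direction of the lists is read from these counts. The median log2 fold changes as deposited were 0.82, 1.24, 0.59 and 0.50 for these 4 lists, each under the members' 2.34. On read totals the 4 lists had 3.33 to 14.3% of genes called higher and 50 to 57.1% lower, near or under the 9.12% and 61.7% of all tested genes, except that coenzyme Q synthesis, with 1 of 7, exceeded the share called higher.

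Against PBS, the same genes were tested with each D particle; these comparisons share the PBS libraries. For NP-D@M against PBS, 81 of 88 members were called higher and 4 lower as deposited, against 44.6% and 45.8% of all tested genes, and 16 and 14 on read totals, against 8.94% and 61.6%. For NP-D@MP against PBS, 83 were called higher and 4 lower, against 45.7% and 45.8% of all tested genes, and 23 and 14 on read totals, against 9.01% and 62.4%. The members' median log2 fold changes were 2.21 and 2.46 as deposited, and 0.32 and 0.48 on read totals. Without both libraries that stood apart, the read-total counts were 18 higher and 29 lower for NP-D@M, and 25 and 26 for NP-D@MP. The shares of all tested genes in that fit are not given here. These counts thus show only that the members' calls depended on those libraries.

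NP-D@MP and NP-D@M, which differ by P, showed no member called in either direction, with limma on deposited values or with voom on the recovered reads. Of all 8615 tested genes 0.0% were called higher and 0.0% lower; 428 had an unadjusted p under 0.05, none of them a member. Another fit left out PBS replicate 3 and NP@M replicate 2, which leaves both groups whole but lowers the shared estimate of spread. There 13 of the 88 members had an unadjusted p under 0.05, each higher in NP-D@MP. Of all 8615 tested genes 1204 had one, a share near that of the members. The direction of those 1204 is not given here, so no shift of the members is read from this count. Among the 13 were Atp5g2 (0.47, unadjusted p = 0.0089, adjusted p = 0.22, limma) and Cox8a (0.68, unadjusted p = 0.01, adjusted p = 0.23, limma). No member was called there either, against 8 genes higher and 9 lower over all tested genes. The members' median log2 difference was 0.27, against 0.03 over all tested genes. For 10 of the 88 members the 3 NP-D@MP libraries lay above the 3 NP-D@M libraries, and for none below, against 8.58% and 6.14% of all tested genes. On read totals it was 5 above and 5 below. The shares of all tested genes on that scale are not given here, so nothing about the members is read from that count. Ndufs6, a zinc-binding subunit of complex I, had 23.7, 49.3 and 92.6 FPKM in NP-D@MP, against 20.6, 19.0 and 30.5 FPKM in NP-D@M. The groups overlapped, and the difference of 1.03 had a 95% interval from -0.42 to 2.48 (unadjusted p = 0.15, adjusted p = 1, limma). It was 0.56 without NP-D@MP replicate 3 and 1.52 without NP-D@MP replicate 1. Ndufaf2, a complex I assembly factor, had the smallest p of the members (unadjusted 0.085, limma), at 0.50 with an interval from -0.08 to 1.08, and Cox5b stood at 0.84 with an interval from -0.36 to 2.05. On the lower side Ndufs4, a complex I subunit, had 20.2, 26.01 and 19.5 FPKM in NP-D@MP, against 27.6, 22.9 and 29.5 FPKM in NP-D@M. Its difference of -0.28 had an interval from -0.64 to 0.09, and those of Sdhaf2 and Ndufaf7 were -0.19 and -0.15. Without the libraries of other groups that stood apart, the interval of Ndufs6 began at 0.06 and that of Cox5b at 0.19, both above 0 (adjusted p = 0.33 and 0.26, limma), while those of Ndufaf2 and Ndufs4 still included 0. Of 12 granulocyte markers, 10 had a positive difference between the same groups and 7 an unadjusted p under 0.05 (limma). These genes share their libraries and are not independent, so no shift is read from that count. Summed FPKM of the granulocyte markers as deposited overlapped, at 5332 to 7701 in NP-D@MP and 4821 to 7311 in NP-D@M. Megakaryocyte and platelet sums also overlapped, at 25737 to 28667 and 20396 to 26099. The part of these markers was not tested.

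NP@M and PBS, the particle without D and the buffer, showed no member called, with limma or voom, and none with an unadjusted p under 0.05, against 27 of all tested genes. Of all genes 0.0116% were called higher, which is 1 gene, and 0.0% lower. The members' median difference was -0.09, against -0.0007 over all tested genes. The lowest p was that of Cox4i1, with 100.5, 75.4 and 76.1 FPKM in NP@M, against 162, 123 and 95.1 FPKM in PBS. The ranges overlapped, and the difference of -0.56 had a 95% interval from -1.26 to 0.13 (unadjusted p = 0.1, adjusted p = 1, limma). Ndufb3 and Sdhb had the next smallest p on the lower side, at -0.38 and -0.34. On the higher side Atp5mpl, Cox6a2 and Atp5s stood at 0.35, 0.38 and 0.33. Without both libraries that stood apart Cox6a2 turned to -0.29, and without PBS replicate 3 Atp5mpl turned to -0.16. No member had its NP@M libraries above the PBS libraries, and 1, Sdha, had them below, against 1.74% and 1.14% of all tested genes.

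Within groups, the respiratory chain marked the libraries that stood apart. In PBS replicate 3 the members lay a median of 1.04 below the mean of the other 2 PBS libraries on the log2 scale, and 45 of 88 lay more than 1 below; over all tested genes the median was -0.05 and 1306 of 8615 lay more than 1 below. In NP@M replicate 2 the members' median deviation was -0.79, with 37 of 88 more than 1 below, against -0.05 and 895 of 8615 over all genes. NP-D@MP replicate 1 deviated in the same sense at -0.50, with 18 of 88 more than 1 below, against -0.05 and 392 of 8615 over all genes. The classes differed within a library: in PBS replicate 3 the medians were -1.28, -1.39 and -1.38 for subunits of complexes I, III and IV, -0.79 for complex V and -0.09 for complex II. In NP@M replicate 2 they were -1.09, -1.12, -0.94, -0.74 and -0.18 in that order. Deviations in PBS replicate 3 and NP@M replicate 2 ran together across the 88 members (Spearman's rho 0.89) and across all 8615 genes (0.86). They also ran with coding length, at rho 0.58 and 0.56 over the members, and with the GC content of the transcript, at -0.51 and -0.43. Genes share the library they are measured in and are not independent replicates, so these correlations are descriptions. The members are short: their median coding length was 430.5 bases, against 1257 bases for the 7764 tested genes with a coding transcript in GENCODE M21. The log2 fold change between NP-D@M and NP@M itself ran against coding length, at rho -0.68 over the members and -0.43 over all genes, and at -0.58 and -0.38 without the libraries that stood apart. With the trend on gene length removed from each library, 66 members were called higher and 4 lower on deposited values, against 81 and 4 with it. On read totals the same step, added after seeing the data, moved the count called higher to 45, against 18. The shares of all tested genes with the trend removed are not given here. The counts thus show only how far the members' own calls moved.

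**Figure D5:**
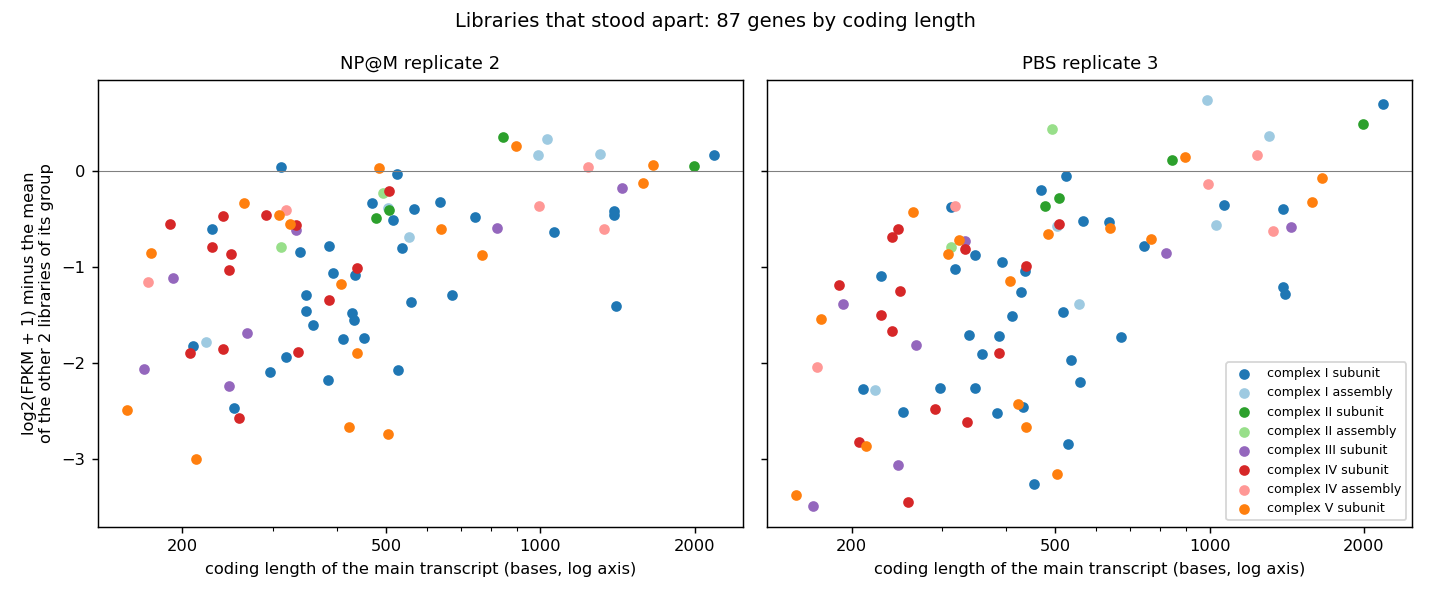
Deviation of NP@M replicate 2 (left) and PBS replicate 3 (right) from the mean of the other 2 libraries of the group, in log2(FPKM + 1), against coding length in bases (log axis) for 87 genes coloured by class. Short subunits lie as low as -3.49 in PBS replicate 3, while the subunits of complex II (green) lie between -0.37 and 0.49.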

How the data were processed

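The authors deposited 1 table of 11669 genes in 12 libraries whose header names no unit; the values are FPKM, as read from the values. Times gene length, each deposited FPKM value is a whole multiple of a step per library (within 0.05, for 100% of values), which gave the reads. Bowtie 0.12.2 and mm8 are named in the submitters' processing notes without their role; coordinates of 86 of 93 members equal GENCODE M21 on GRCm38. Kit and protocol are per the labels, and counting by strand is not given in the sources used here.

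Genes with at least 1 FPKM in at least 3 libraries (8615) were fitted with limma 3.58.1 in R 4.3.3 on log2(FPKM + 1), with 4 group means over 12 libraries, trend and robust moderation, 2-sided tests and Benjamini-Hochberg adjustment per comparison. Fold changes are on that scale and understate low genes. The read-total scale divides by recovered reads. The method was tested on simulated data. Members and lists were chosen with earlier results of these data known. Named genes were, for NP-D@M against NP@M, the 2 highest and 2 lowest log2 fold changes of each class of at least 4 tested members, and in the other 2 comparisons the 3 members with the smallest p in each direction, besides complex II subunits, isoform pairs and 7 other genes. A test that had been planned for the read share and the nuclear to mitochondrial ratio is not given, because both are scores over the members. Isoform ratios used exact permutation tests (scipy 1.17.1). Alternatives were other scalings, voom, pseudocount, filters, moderation, length trend and libraries left out. No interval is given for single read counts, which would cover counting error only. The heat map leaves out Atp5s, which was kept apart from the classes, and 1 further member whose values are not reported here; both remain in the counts.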

Additional observations from a re-analysis of the deposited data

How the results depend on the processing

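Counts of members called kept within 1.5 times of the reported values under equal medians, a pseudocount of 0.1, no filter, moderation without trend and robust, only the 6 libraries compared, the length trend removed, and both libraries that stood apart left out. On read totals the counts of members higher and lower were 18 and 13 for NP-D@M against NP@M, 16 and 14 for NP-D@M against PBS, and 23 and 14 for NP-D@MP against PBS. With voom on recovered reads they were 20 and 13, 18 and 14, and 24 and 14. Quantile normalization left 42, 38 and 43 higher. A filter of 5 FPKM in 3 libraries left 0 lower in each, as it removes the low genes from testing. Read totals without the libraries that stood apart gave 28 and 22, 18 and 29, and 25 and 26. Read totals with the length trend removed gave 45, 43 and 52 higher. These last 2 settings were added after seeing the data, and the shares of all tested genes in them are not given here. Leaving out 1 library gave 73 to 81 higher and 4 to 4 lower for NP-D@M against NP@M, 72 to 82 and 4 to 4 for NP-D@M against PBS, 80 to 84 and 3 to 4 for NP-D@MP against PBS, and 0 to 0 elsewhere. The share of reads in the members (log2 difference with against without D 0.47) ranged from 0.36 to 0.56 when 1 library was left out, and the log2 nuclear to mitochondrial ratio (difference -0.21) from -0.44 to -0.01; by medians over genes that ratio's difference was -0.91, and without the libraries that stood apart -0.47. The share difference was 0.22 without the libraries that stood apart.

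Some named genes changed sign between NP-D@M and NP@M. On read totals the values were -0.51 for Atp5a1, -0.82 for Cox5b, -0.43 for Ndufab1, -1.21 for Ndufs7, -0.35 for Sdha, -0.85 for Sdhaf2, -0.28 for Sdhb, -1.47 for Uqcrc1 and -0.76 for Uqcrfs1. Under quantile normalization the values were -0.89 for Atp5a1, 0.022 for Ndufaf7, -0.85 for Uqcrc1 and -0.27 for Uqcrfs1. With voom the values were -0.52 for Atp5a1, -0.86 for Cox5b, -0.60 for Ndufab1, -1.29 for Ndufs7, -0.36 for Sdha, -0.93 for Sdhaf2, -0.29 for Sdhb, -1.51 for Uqcrc1 and -0.78 for Uqcrfs1. With the length trend removed the values were -0.18 for Cox7a1 and -0.17 for Ndufs7. On read totals without the libraries that stood apart the values were -0.50 for Atp5a1, -0.084 for Atp5g1, -0.15 for Atp5g3, -1.30 for Cox5b, -0.59 for Ndufab1, -0.54 for Ndufaf8, -1.68 for Ndufs7, -0.34 for Sdha, -0.94 for Sdhaf2, -0.16 for Sdhb, -1.53 for Uqcrc1 and -0.98 for Uqcrfs1. On read totals with the length trend removed the values were -0.32 for Cox5b, -0.61 for Ndufs7 and -0.43 for Uqcrfs1. In NP@M against PBS, Cox6a2 was -0.29 without the libraries that stood apart, and -0.34 on read totals without them; leaving out 1 library gave -0.45 to 0.86 for Cox6a2 and -0.16 to 0.64 for Atp5mpl. With a pseudocount of 0.1 the isoform differences were -0.38 for Atp5g1 to Atp5g3, 0.046 for Cox6a2 to Cox6a1 and -0.41 for Cox7a1 to Cox7a2, and without the libraries that stood apart Atp5g1 to Atp5g3 was -0.27. Leaving out 1 library gave differences of -0.84 to -0.54 for Atp5g1 to Atp5g3, 0.86 to 1.04 for Atp5g2 to Atp5g3, -0.84 to -0.50 for Cox6a2 to Cox6a1, -2.06 to -1.75 for Cox7a1 to Cox7a2 and -0.71 to -0.57 for Cox7a2l to Cox7a2. Apart from what these settings are built to change, the cause was not tested. No paired analysis was possible because the replicate numbers follow accession order and pair no libraries across groups. With 3 libraries a group, differences within the intervals given were not detectable, and genes at a few reads with D rest on counting error too.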
